A study of Mus musculus with 12 samples.

Results

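The gene Aire (ENSMUSG00000000731), 1 of 32285 genes listed in the files, was followed in antibody-secreting cells (ASCs), a name that covers dividing plasmablasts and non-dividing plasma cells. A cell was counted when its barcode had at least 1000 UMIs (unique molecular identifiers, each standing for 1 captured RNA molecule) outside immunoglobulin genes and when its leading light chain V gene took at least 50% of its light chain V UMIs. This rule was met by 8715 of the 39949 barcodes listed as cells. Aire was present in 236 of them, with 311 UMIs in all. Aire and the groupings used for it were chosen by the Aire UMI counts of these same libraries, so the levels of Aire by tissue and antibody class are given as a description with no test.

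Female and male mice 3 months old gave the ASCs of 3 tissues: bone marrow, spleen and thymus. All mice were of the Prdm1-eYFP strain on the C57BL/6 background, in which a yellow fluorescent protein reports Prdm1, a transcription factor of ASCs, and no group received a treatment. Cells pooled from 3 mice were sorted as B220 positive or negative, CD138 high, IgD negative, CD90.2 negative and reporter positive, so the sort itself selected for Prdm1 activity. Each sex and tissue gave 1 gene expression library from the 5' end of transcripts and 1 table of B cell receptor sequences. It is not stated in the labels if 1 pool of mice gave all tissues of a sex.

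Aire is the autoimmune regulator, a nuclear protein best known from medullary thymic epithelial cells. There it drives low-level transcription of many tissue-restricted genes, which lets developing T cells that recognise the body's own proteins be removed. Its expression in those cells depends on receptors of the TNF receptor family, such as RANK and CD40, and on the noncanonical NF-kB pathway through RelB. Outside the thymus it is known from small populations of dendritic and lymphoid cells. AIRE has a SAND domain, which it shares with the SP100 family of nuclear body proteins.

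In the mouse genome (GRCm38) Aire lies on the minus strand of chromosome 10, from 78030022 to 78043610. GENCODE annotates 16 transcripts there, with 4 to 15 exons. The plus-strand gene Dnmt3l overlaps 1664 bp at the 5' end of Aire, and it had 2 UMIs over all cells that met the rule. The next genes, Pfkl and Icosl, lie 19938 and 25691 bp away and had 1620 and 324 UMIs. Whether counting used the strand is not given in the sources used here, so reads from the overlap cannot be told apart between the 2 genes.

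3 properties of the libraries bear on every value. The summed UMIs of the 6 libraries were lowest in female thymus, at 1367972, and highest in female spleen, at 85749785, and 107 thymic cells of females and 288 of males met the rule, so thymic values rest on few cells. Of the 8715 cells, 530 (6.08%) carried a barcode that was also listed in another library. In 141 of these the other library's cell had the same V gene pair, and 23 of the 236 Aire-positive cells were among the 530. Shared barcodes were most frequent in thymus, at 29.9% of the female and 20.5% of the male cells, and values without them are given beside the results. The receptor tables matched the gene expression barcodes of the same tissue but of the other sex label. In female bone marrow, 900 cells had their barcode in the table labelled male bone marrow and 2 in the one labelled female. In male bone marrow, 1241 matched the table labelled female and 2 the one labelled male. Xist, which is transcribed from the inactive X chromosome, had 431 to 14306 UMIs in the libraries labelled female and 2 to 8 in those labelled male, so the gene expression labels matched the sex genes. Receptor sequences were joined to cells by barcode within a tissue and are given under the gene expression library's label.

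The receptor sequences of Aire-positive cells show which ASCs carried the transcript. A heavy chain contig was found for 140 of the 236 Aire-positive cells, and these fell into 111 distinct rearrangements out of 2390, of which 6 had positive cells in more than 1 library. A rearrangement is a V gene, a J gene and the junction between them (CDR3), and it marks the descendants of 1 B cell or a junction that arose more than once. Only 10 rearrangements held 2 or more Aire-positive cells in a library, 33 cells together. With the libraries joined, 13 rearrangements held 2 or more, 42 cells together. The CDR3 sequences of the 10 are shown because more than 1 Aire-positive cell of a library carried them. Each runs 5′ to 3′ from the conserved cysteine codon to the tryptophan codon. For a V gene that appears more than once, capitals mark the bases between the start and the end that its sequences share.
IGHV9-3 with IGHJ2, male spleen: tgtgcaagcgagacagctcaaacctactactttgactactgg
IGHV3-6 with IGHJ2, female spleen: tgtgcaagttatagtaacgaggactactgg
IGHV11-2 with IGHJ1, junction 1, female bone marrow: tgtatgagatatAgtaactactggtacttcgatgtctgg
IGHV11-2 with IGHJ1, junction 2, female bone marrow: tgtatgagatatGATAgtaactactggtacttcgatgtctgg
IGHV11-2 with IGHJ1, junction 3, female bone marrow: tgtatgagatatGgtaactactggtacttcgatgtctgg
IGHV1-55 with IGHJ1, female bone marrow: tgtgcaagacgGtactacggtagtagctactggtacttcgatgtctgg
IGHV1-55 with IGHJ1, male bone marrow: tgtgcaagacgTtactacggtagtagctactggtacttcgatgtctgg
IGHV1-80 with IGHJ3, female bone marrow: tgtgcaagaggGgcttactgg
IGHV1-80 with IGHJ3, male bone marrow: tgtgcaagaggAgcttactgg
IGHV1-22 with IGHJ2, male bone marrow: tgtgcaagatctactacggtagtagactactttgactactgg
The IGHV9-3 rearrangement had 8 Aire-positive cells among 391 cells in male spleen, and the IGHV3-6 one had 6 among 39 in female spleen. The 3 IGHV11-2 junctions, which differ at the 1 place marked by capitals, had 3 positive cells each, among 16, 6 and 15 cells of female bone marrow. Each of the other 5 rearrangements had 2 in the library named. Of the 5068 cells with a heavy chain contig, 140 were Aire-positive, and no rearrangement held more than 8 of these 140. Such counts also depend on how many cells a rearrangement had.

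Aire was a transcript of low abundance. Over all cells that met the rule it stood at 6.81 CPM, where CPM are UMIs per 1000000 UMIs outside immunoglobulin genes, with an exact 95% Poisson interval of 6.08 to 7.61. That interval, like the others here, covers counting error only. Leaving out the shared barcodes left 213 of 8185 cells positive, at 6.71 CPM. Of 17189 genes with at least 1 UMI, 8468 were higher than Aire. Of the positive cells, 188 had 1 Aire UMI, 35 had 2, and 13 had 3 or more, with 7 as the most in a cell. At a median of 3576 UMIs per cell, 0 is the likeliest reading of any single cell at such a level, so the share of positive cells is not a share of expressing cells.

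In bone marrow, Aire was at 10.9 CPM in females (8.36 to 14.0, from 62 UMIs in 1238 cells) and at 9.15 CPM in males (7.31 to 11.3, from 85 UMIs in 1665 cells). In spleen it was at 5.21 CPM in females (4.29 to 6.28, from 111 UMIs in 3567 cells) and at 6.06 CPM in males (4.47 to 8.03, from 48 UMIs in 1850 cells). In thymus it was at 7.56 CPM in females (0.915 to 27.3, from 2 UMIs) and at 2.52 CPM in males (0.520 to 7.37, from 3 UMIs). Both bone marrow libraries lay above both spleen libraries, while the female thymus interval spanned all 5 other values and that of male thymus spanned the spleen values.

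Summed over the sexes, the level was 9.82 CPM in bone marrow (8.29 to 11.5), 5.44 CPM in spleen (4.63 to 6.36) and 3.44 CPM in thymus (1.12 to 8.03). The share of cells with an Aire UMI was 3.75% in bone marrow, 2.27% in spleen and 1.01% in thymus. Estimated free RNA made up 8.58 to 10.4% of the UMIs in bone marrow cells and 15.3 to 18.0% in spleen cells, and its part in the tissue values was not tested. With each cell thinned to 1000 UMIs the shares were 1.03%, 0.868% and 0.759%, and the bone marrow and spleen levels were 13.1 and 9.41 CPM. In cells whose leading light chain V gene took at least 90%, the levels were 5.44 CPM in bone marrow and 4.82 CPM in spleen. In that last setting the libraries interleaved, at 6.21 and 4.95 CPM in bone marrow of females and males and 5.59 and 3.33 CPM in spleen. The pooled bone marrow level was thus above that of spleen in each of these settings but by a smaller factor, and thymus cannot be placed in an order at this depth. Without the shared barcodes the levels were 10.1, 5.20 and 4.45 CPM in bone marrow, spleen and thymus.

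The estimate of free RNA in the droplets predicted 23.3 of the 311 Aire UMIs. The observed number was 106 times the predicted one in female thymus, from 2 UMIs, and 9.03 to 26.0 times in the other libraries. In cells with a light chain share of 50 to 60%, Aire was at 11.3 CPM and the estimated free RNA share was 30.4%. Over all cells that met the rule these were 6.81 CPM and 14.2%. The part of free RNA in the Aire level was not tested. Barcodes outside the list of cells held Aire at 1.46 to 4.83 CPM. Listed barcodes with at least 0.5% of their UMIs from markers of another cell type were also counted, at any light chain share. Of the macrophage, neutrophil and B cell marker barcodes, 0, 3 and 2 met the rule. An Aire UMI was found in 0 of 50 macrophage-marker barcodes (median 1321 UMIs), which allows a share of up to 6%. The same held for 0 of 55 neutrophil-marker barcodes (median 5116 UMIs, up to 5.45%) and for 0 of 87 B cell marker barcodes (median 2068 UMIs, up to 3.45%). These limits lie near or above the 3.75% of bone marrow ASCs, and the macrophage and B cell marker barcodes were shallower than those ASCs (median 3403 UMIs), so no difference from ASCs is read from them.

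Cells that express Aire elsewhere were looked for by their markers. Of 8 markers of medullary thymic epithelial cells, Krt5, Krt14, Foxn1, Fezf2, Cldn3 and Cldn4 had no UMI in the cells of any library. Krt8 had 1 UMI, in male thymus. Epcam, an adhesion protein of epithelia, was present at 60.5 to 190 CPM in every library. Of 10 dendritic cell genes, Xcr1, Clec9a and Ccl22 were at 0 in every library, and the summed list was at 7.66 to 11.1 CPM in bone marrow and spleen. In thymus the sum was at 41.6 CPM in females and 32.8 CPM in males, of which 34.0 and 27.8 CPM were from Fscn1 alone. The ASC list, with Sdc1, Prdm1, Xbp1 and Jchain among its 10 genes, summed to 58937 to 110621 CPM. Of the tissue-restricted genes that AIRE is known to switch on in the thymus, Ins2, Rbp3, Csn2 and Tff3 were at 0 in every library, and Muc6 reached at most 1.68 CPM.

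Aire was read mostly in cells whose leading heavy chain constant gene was Ighm, which encodes the heavy chain of IgM. Of 7085 Ighm cells, 226 (3.19%) were Aire-positive, with 300 UMIs at 8.13 CPM (7.24 to 9.10). Of 1621 cells led by an Ighg gene or by Igha, for IgG and IgA, 10 (0.617%) were positive, with 11 UMIs at 1.27 CPM (0.632 to 2.27). Both groups had nearly the same depth, at medians of 3580 and 3562 UMIs, and nearly the same estimated free RNA share, at 14.2% and 14.4%. Free RNA alone predicted 4.55 of the 11 UMIs in the class-switched cells and 18.7 of the 300 in the Ighm cells. Thinned to 1000 UMIs, 1.12% of Ighm and 0.0617% of class-switched cells had an Aire UMI. Without the shared barcodes the levels were 8.06 and 1.003 CPM.

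The classes were then set side by side in each library. In Ighm cells Aire was at 12.96 and 9.44 CPM in bone marrow of females and males, at 6.74 and 6.87 CPM in the spleen libraries, and at 11.2 and 3.35 CPM in those of thymus. In class-switched cells it was at 1.02 and 5.04 CPM in bone marrow, with 1 and 3 UMIs, and at 1.05 and 0.959 CPM in spleen, with 6 and 1 UMIs. No Aire UMI was found in the class-switched cells of either thymus, which allows up to 35.1 CPM in females and 10.2 CPM in males. Both limits lie above the Ighm values of thymus, so the classes cannot be compared there. The Ighm value was the higher one in the 4 libraries of bone marrow and spleen.

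**Figure D1:**
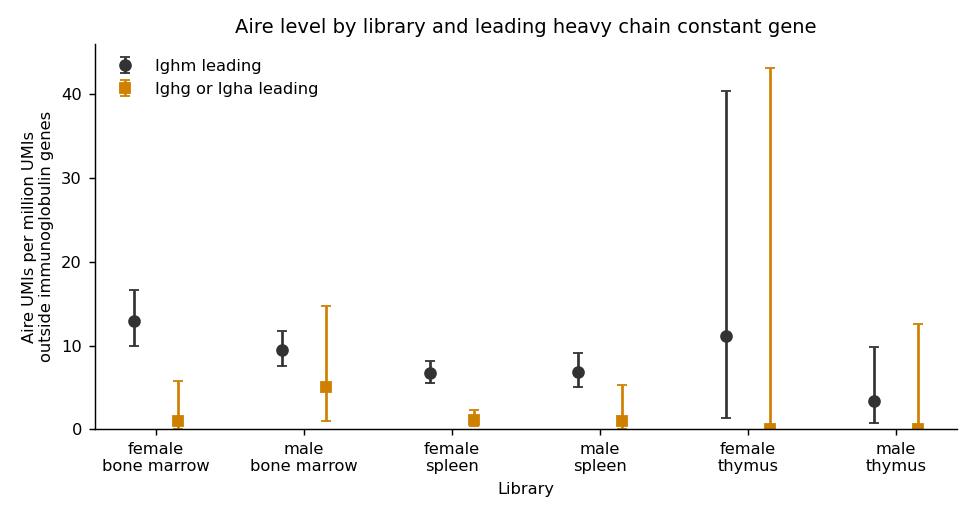
Aire level (UMIs per 1000000 UMIs outside immunoglobulin genes, vertical axis) in each of the 6 libraries (horizontal axis), for cells led by Ighm (circles) and for cells led by an Ighg gene or Igha (squares), with exact 95% Poisson intervals as bars. The Ighm values lie between 3.35 and 12.96 and the class-switched values between 0 and 5.04.

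Igha and Ighg cells each had few Aire UMIs. Igha cells had 3 positive of 491 at 1.29 CPM, and Ighg cells had 7 of 1130 at 1.26 CPM. The Igha value turned on single libraries: 2 of its 3 UMIs came from 60 cells of male bone marrow, at 7.42 CPM there (0.898 to 26.8), against 9.44 CPM in the Ighm cells of that library. Without male bone marrow the Igha level was 0.486 CPM, from 1 UMI, and without female spleen it was 1.98 CPM, from 2 UMIs. Within IgG, 0 of 86 Ighg1, 2 of 498 Ighg2b, 2 of 365 Ighg2c and 3 of 181 Ighg3 cells were positive, numbers too small to set these classes apart. The class was also read from the receptor contigs, which come from separate libraries. It was the same as the class from the expression matrix in 97.9% of 4873 cells. By contig, 126 of 137 Aire-positive cells (92.0%) were IgM, against 3515 of 4736 Aire-negative cells (74.2%). These pooled shares mix libraries in unequal parts. Within libraries they were 97.3 against 75.3% in female bone marrow, 93.0 against 89.2% in male bone marrow and 96.6 against 85.1% in male spleen. The levels by contig class were 8.40 CPM for IgM, 1.79 CPM for IgG and 1.51 CPM for IgA. Female spleen was the library with the most switched positive cells by contig, where 18 of 24 were IgM (75.0%, against 43.9% of Aire-negative cells), 5 were IgG and 1 was IgA. Contigs gave a class for only 1085 of the 3567 cells there. By the expression matrix, 78 of 83 positive and 2540 of 3484 negative cells of female spleen were led by Ighm.

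Aire was also lower in cells with more transcripts of 6 cell cycle genes (Mki67, Top2a, Cdk1, Ccnb1, Ccnb2 and Birc5), which mark plasmablasts that still divide. It was at 9.59 CPM in the 5094 cells with none of these UMIs, 5.20 CPM in 3062 cells with 1 to 4, and 0.944 CPM in 559 cells with 5 or more. Depth differed between these cells, with medians of 3185, 3843.5 and 8111 UMIs. With each cell thinned to 1000 UMIs the levels were 15.3 CPM (12.1 to 19.1), 4.57 CPM (2.50 to 7.67) and 1.79 CPM (0.0453 to 9.97), the last from 1 UMI. Among Ighm cells alone the levels were 11.1, 6.25 and 1.25 CPM.

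The decrease from no to at least 5 cell cycle UMIs was present in each library of bone marrow and spleen. Aire went from 12.98 through 10.4 to 1.501 CPM in female bone marrow and from 11.8 through 6.62 to 0 CPM in male bone marrow, where 0 UMIs in 74 cells allow up to 3.55 CPM. It went from 7.70 through 4.49 to 0.782 CPM in female spleen and from 8.88 through 3.66 to 2.46 CPM in male spleen. All 5 thymic UMIs were in cells with no cell cycle UMI. The share of cells with an Aire UMI did not follow the CPM in male spleen, where it was 2.70%, 1.39% and 2.15%, since 2 of 93 cells with at least 5 cell cycle UMIs were positive. The pooled levels without the shared barcodes were 9.77, 4.72 and 0.848 CPM.

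**Figure D2:**
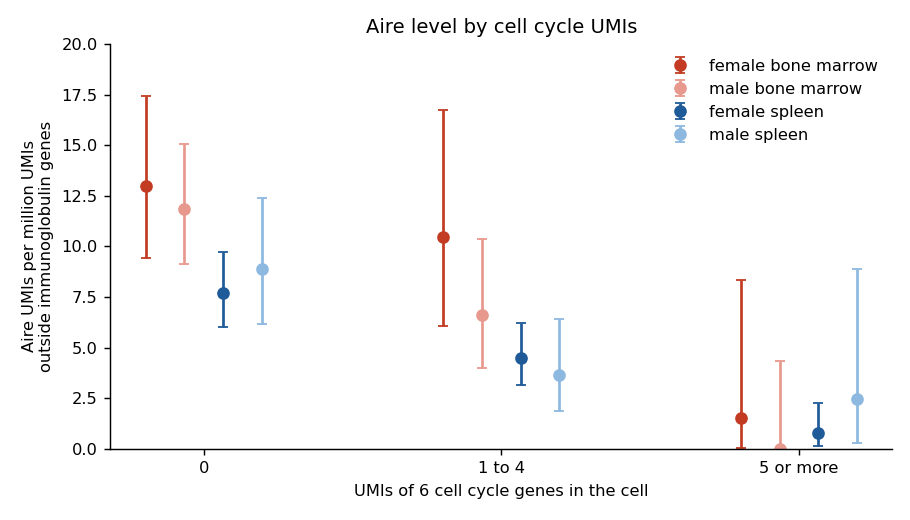
Aire level (UMIs per 1000000 UMIs outside immunoglobulin genes, vertical axis) against the UMIs of 6 cell cycle genes in the cell (none, 1 to 4, 5 or more, horizontal axis) in the bone marrow and spleen libraries, with exact 95% Poisson intervals as bars. In each of these 4 libraries the level is lowest in cells with 5 or more cell cycle UMIs, at 0 to 2.46.

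The share of Aire-positive cells was also counted by the V genes of the receptor. The pairs of leading heavy and light chain V genes named here were chosen after their values were seen, as those with at least 4 Aire-positive cells in a library, so their high shares there are set by the choice and are a description. Over all libraries the positive cells used 157 distinct pairs, and 52 of the 236 used 1 of the 4 chosen ones. Ighv11-2 with Igkv14-126, a pair known from B-1a cells that bind phosphatidylcholine, had 10 positive of 56 cells in female bone marrow (17.9%, with an exact 95% binomial interval from 8.91 to 30.4%). The same pair had 3 of 38 in male bone marrow, 1 of 29 and 1 of 8 in spleen of females and males, and 1 of 2 in female thymus. Outside the library in which it was chosen, 6 of 78 cells were positive (7.69%, 2.88 to 16.0%). In the remaining Ighm cells, 174 of 6209 were positive (2.80%, 2.41 to 3.24%).

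Ighv1-55 with Igkv12-89 had 4 positive of 17 cells in female and 6 of 16 in male bone marrow (23.5 and 37.5%). In the other 4 libraries 1 of 60 was positive (1.67%, 0.0422 to 8.94%), with 0 of 33 in female spleen and 1 of 22 in male thymus. Ighv3-6 with Igkv1-135 had 15 of 140 in female spleen (10.7%, 6.12 to 17.1%) and 1 of 9 in male spleen. Outside the libraries in which they were chosen, the intervals of these 3 pairs overlapped that of the remaining Ighm cells. Ighv9-3 with Igkv5-39, which leads 502 cells of male spleen, had 9 positive (1.79%, 0.823 to 3.38%), and its interval held the 2.50% of the other Ighm cells there. Cells that share a pair can descend from 1 B cell and are not independent samples of it. When shared barcodes were left out, the first 3 pairs had 9 of 45, 4 of 17 and 13 of 133 positive cells in the female libraries named, and 5 of 14 in male bone marrow for Ighv1-55 with Igkv12-89. Most Aire-positive cells lay outside these pairs, and in the other Ighm cells the share was 3.33 and 3.46% in bone marrow and 2.57 and 2.50% in spleen.

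**Figure D3:**
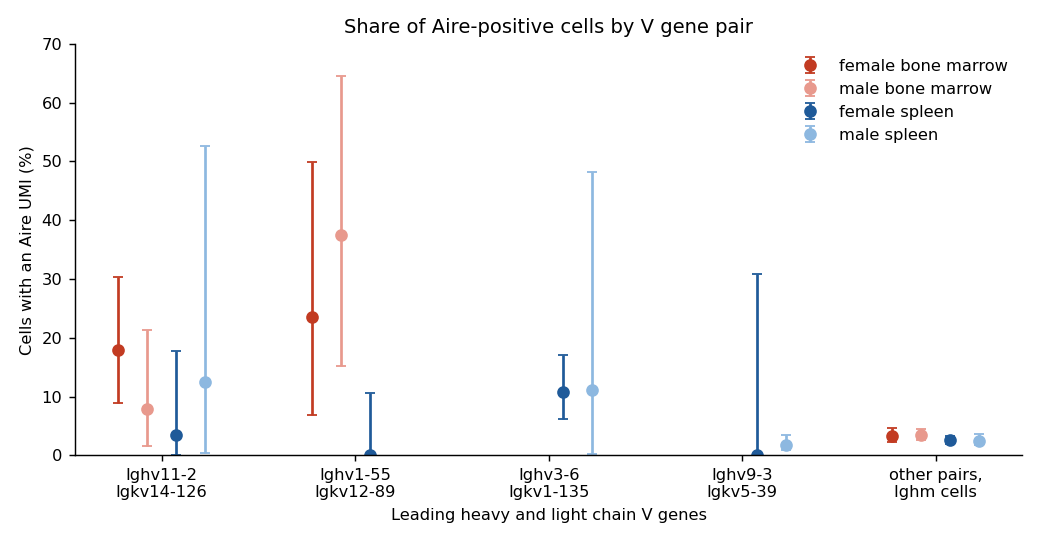
Share of cells with an Aire UMI (percent, vertical axis) by leading heavy and light chain V gene pair (horizontal axis) in the bone marrow and spleen libraries, with exact 95% binomial intervals as bars. The first 3 pairs reach 10.7 to 37.5% in the libraries in which they were chosen, and the other Ighm cells lie between 2.50 and 3.46%.

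Genes that went with Aire were sought by comparing Aire-positive with Aire-negative cells inside each library. Each positive cell was set beside 3 negative cells of nearly the same depth, from its own library and with the same class of leading heavy chain constant gene. The counts were summed, and edgeR's quasi-likelihood test with a term for library was run over the 4 libraries with at least 10 positive cells. These were female bone marrow, female spleen, male bone marrow and male spleen, with 46, 83, 63 and 40 positive cells. At an adjusted p of 0.05 it called 280 of 5977 genes (4.68%), 130 higher (2.18%) and 150 lower (2.51%) in Aire-positive cells. Of the 130, 115 were higher in all 4 libraries, and of the 150, 136 were lower in all 4. The genes were called from these same 4 libraries, so this agreement follows in part from the call and is not separate support. With the shared barcodes left out 168 genes were called, 165 of them among the 280. Leaving out female spleen gave 117 calls. Without the library term the same test called 8 genes, and DESeq2 called 94. Before matching, the median UMIs of Aire-positive cells minus those of all negative cells were -158.5 in female bone marrow, -491 in female spleen, 387.5 in male bone marrow and 296 in male spleen, so the positive cells were deeper in 2 of these 4 libraries. Over all 6 libraries the mean difference was -120 (exact sign-flip permutation test, two-sided, p = 0.53125), and it was 3 without female thymus, which had 1 positive cell. The test compares sums of cells and cannot tell a change within cells from a different mix of ASC stages. The CPM of single genes in this comparison are taken over the UMIs of the tested genes with edgeR's TMM scaling of library sizes, so they are not on the scale of the Aire levels above.

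Among the genes named as higher, Prg2 was the most abundant. It encodes the major basic protein, known from eosinophil granules. Prg2 was at 4083 CPM in Aire-positive and 2288 CPM in matched negative cells of female bone marrow, and at 3875 and 1459 CPM in male bone marrow. In spleen it was at 3466 and 1005 CPM in females and at 2342 and 871 CPM in males. It was higher in positive cells of all 4 libraries, with a log2 fold change of 1.37 (SE 0.08, edgeR quasi-likelihood test, Benjamini-Hochberg adjusted p = 1.39e-29), and 85 to 95.2% of positive and 66.7 to 84.8% of negative cells had a Prg2 UMI. Its call was kept in 16 of 17 alternatives. Of 4 other genes known from eosinophils, chosen after Prg2 was seen, Epx had no UMI in the cells of any library. Siglecf and Ccr3 had 2 and 12 UMIs over all cells and none in Aire-positive cells. As Aire-positive cells were 2.71% of the cells, these counts are too low to compare. Prg3, a homolog of Prg2, had 241 UMIs, 19 of them in Aire-positive cells. These were 14 of 136 in female spleen (where 2.33% of cells were positive), 4 of 50 in male spleen, 1 of 21 in female bone marrow, and 0 of 17 in both male bone marrow and male thymus.

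Rapgef1, a guanine nucleotide exchange factor for the small GTPase Rap1, was at 358 against 163 CPM in female bone marrow and at 368 against 158 CPM in male bone marrow. It was at 215 against 98.4 CPM in female spleen and at 446 against 119 CPM in male spleen. Rapgef1 was higher in each library and was present in 54.2 to 75% of positive and 38.2 to 55.0% of negative cells (log2 fold change 1.31, SE 0.13, edgeR adjusted p = 2.29e-15), and it kept its call in 17 of 17 alternatives. Ebi3, a subunit of the cytokines IL-27 and IL-35, was at 99.5 against 48.5 and 96.7 against 27.6 CPM in bone marrow of females and males. In female and male spleen it was at 131 against 50.2 and 72.5 against 34.0 CPM (log2 fold change 1.38, SE 0.19, adjusted p = 2.06e-08). Vav3, a guanine nucleotide exchange factor that acts below antigen receptors, was at 119 against 37.2 and 132 against 50.1 CPM in bone marrow of females and males and at 50.1 against 27.2 and 88.1 against 47.5 CPM in spleen (log2 fold change 1.23, SE 0.20, adjusted p = 2.30e-06). These 3 genes were higher in positive cells of all 4 libraries.

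The unnamed transcript Gm48370 was read in 15.2 to 27.7% of positive and 4.35 to 6.83% of negative cells across the 4 libraries (log2 fold change 2.25, SE 0.26, edgeR adjusted p = 1.14e-11). Gm48370 was named for its large difference in these same libraries, so the gap between the 2 ranges follows in part from that choice. Il4i1, an enzyme that degrades phenylalanine, had the largest fitted difference, at 3.74 (SE 0.35, adjusted p = 4.72e-16), but this rests on very few cells. All 58 Il4i1 UMIs of the positive cells of female spleen were in 1 cell, and 12 of the 16 in male bone marrow were in 1 cell. Il4i1 was at 0 to 9.07 CPM in negative and 24.9 to 121 CPM in positive cells. It met the filter for abundance through the positive cells, the group in which it was high, so the size of its difference is not free of that filter.

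Other genes named as higher were Sspo (1.95), which encodes SCO-spondin, Dpp4 (1.53), a surface peptidase, Ggh (1.47), a lysosomal gamma-glutamyl hydrolase, Wnt10a (1.46), a secreted Wnt ligand, Cyb561a3 (1.40), a cytochrome that reduces iron, Hspb1 (1.38), a small heat shock protein, and Ly6i (1.31), on the log2 scale. Ly6i counts are uncertain, because the Ly6 genes resemble each other, and Ly6i lost its call in 4 of 12 alternatives, among them leaving out female spleen. Hspb1 was higher in 3 of 4 libraries and the others in all 4. At a light chain share of at least 90%, Hspb1 was at 0.04 and Vav3 at 0.33, and neither was called. That fit had no male spleen, where 6 positive cells qualified. In female bone marrow, 33 of the 84 Ggh UMIs of positive cells were in 1 cell. Sspo and Dpp4 were at 3.24 to 17.8 CPM in negative and 21.5 to 74.6 CPM in positive cells of the 4 libraries. They too met the filter for abundance through the positive cells, so the size of their differences is not free of that filter.

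The genes lower in Aire-positive cells included surface molecules of lymphocyte interactions. Tigit, an inhibitory receptor, was at 9.95 against 72.8 CPM in female bone marrow and at 18.8 against 75.1 CPM in male bone marrow. It was at 64.7 against 179 CPM in female spleen and at 5.18 against 74.7 CPM in male spleen. Tigit was lower in positive cells of all 4 libraries (log2 fold change -1.83, SE 0.22, edgeR adjusted p = 1.53e-10). Cd2, an adhesion receptor for CD48, fell by 1.72 on the log2 scale (SE 0.28, adjusted p = 1.61e-06). It was at 10.4 to 27.1 CPM in positive and 44.04 to 77.7 CPM in negative cells, and kept its call in 13 of 13 alternatives in which it was tested.

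Hmgn2 (-1.65) and Hmgb2 (-1.26), chromatin proteins that are abundant in dividing cells, and Vim (-1.60), the intermediate filament vimentin, were lower as well. Hmgb2 was higher in positive cells of male spleen, at 93.3 against 52.6 CPM, where 9 of its 18 UMIs were in 1 cell. Scimp (-1.57), an adaptor at MHC class II, Bcl2a1b (-1.40), an inhibitor of cell death with near-identical paralogs and therefore uncertain counts, and Gm4316 (-1.24) were lower in all 4 libraries. So were Pmvk (-1.56) and Cyp51 (-1.23), enzymes of sterol synthesis. Scimp, Pmvk and Bcl2a1b were at 0 to 14.9 CPM in positive and 19.9 to 45.3 CPM in negative cells. They met the filter for abundance through the negative cells, so the size of their differences is not free of that filter. Bcl2a1b lost its call in 4 of 8 alternatives, among them leaving out male bone marrow or male spleen. Cyp51 lost it in 4 of 11, among them leaving out female spleen, male bone marrow or male spleen. Pmvk lost it in 3 of 10, among them leaving out female spleen or male bone marrow, and Scimp in 2 of 8, among them leaving out female bone marrow. When only cells with no cell cycle UMI were compared, 86 of 4442 tested genes were called, 76 of them among the 280. Vim was at -1.16, Hmgb2 at -0.42, Gm4316 at -0.54 and Vav3 at 0.71 there, and these 4 were not called. Without female spleen, Hmgn2 and Hmgb2 were at -1.01 and -0.32 and were not called.

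**Figure D4:**
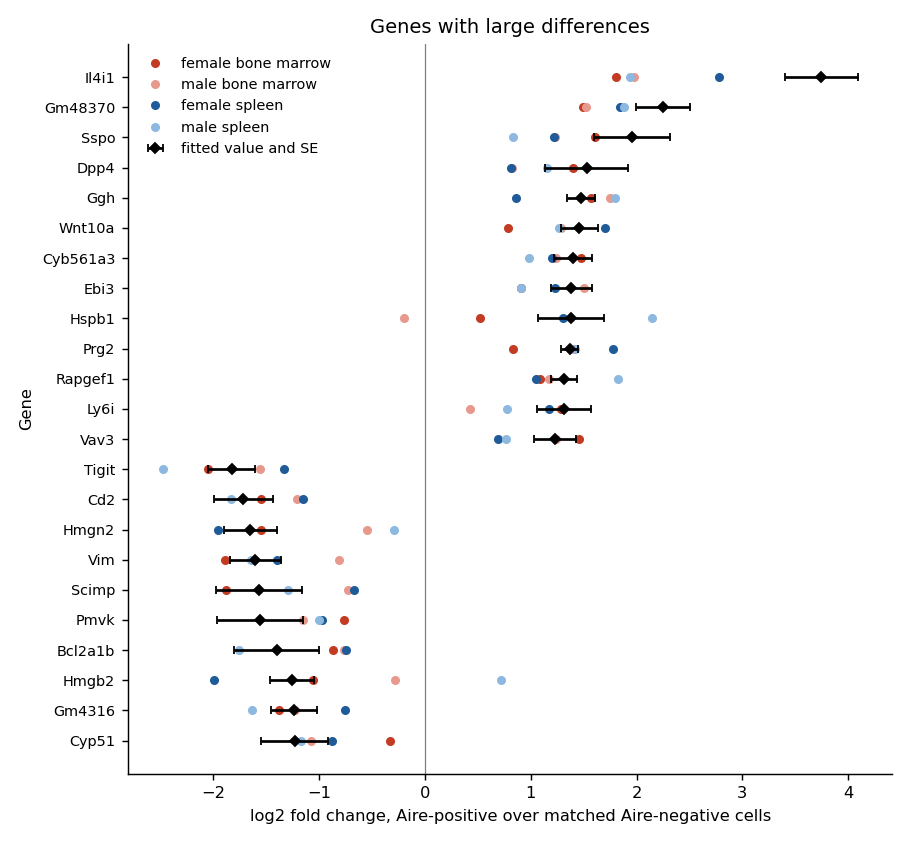
Log2 fold change of Aire-positive over matched Aire-negative cells (horizontal axis) for genes named as higher and the 10 named as lower (vertical axis). Dots are the 4 libraries, computed with 10 CPM added to both levels, and black diamonds are the fitted values with their SE, which run from -1.83 for Tigit to 3.74 for Il4i1.

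The pathway that controls Aire in thymic epithelium was examined with a list of 18 TNF receptor and NF-kB genes. Of 12 that could be tested, 4 rose and none fell, against 2.18% of all genes that rose, and the median log2 fold change was 0.22 against -0.01 for all genes. Tnfaip3, which encodes the NF-kB inhibitor A20, was at 59.7 against 21.0 and 53.7 against 30.2 CPM in bone marrow of females and males and at 45.9 against 20.2 and 62.2 against 35.7 CPM in spleen. Relb, the partner of p52 in the noncanonical pathway, was at 99.5 against 64.7 and 94.0 against 51.8 CPM in bone marrow and at 70.9 against 32.1 and 41.5 against 32.3 CPM in spleen. Both were higher in positive cells of all 4 libraries, by 1.04 (SE 0.25, edgeR adjusted p = 0.00318) and 0.83 (SE 0.21, adjusted p = 0.00428) on the log2 scale.

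Nfkbia, the inhibitor IkB-alpha, rose by 0.32 (SE 0.10, edgeR adjusted p = 0.0354). Nfkb2, the precursor of p52, rose by 0.60 (SE 0.18, adjusted p = 0.0305), although it was lower in positive cells of female bone marrow, at 44.8 against 77.7 CPM. These calls were less stable than those of the other 2: Nfkb2 lost its call in 14 of 16 alternatives and Nfkbia in 10 of 17, while Relb lost it in 6 of 15 and Tnfaip3 in 4 of 13. In cells with no cell cycle UMI, Relb (0.82), Nfkb2 (0.74) and Nfkbia (0.19) were not called, and without female spleen none of the 4 was, at 0.98 for Tnfaip3, 0.69 for Relb, 0.38 for Nfkb2 and 0.19 for Nfkbia. Without the shared barcodes Relb was called (0.74, edgeR adjusted p = 0.0471), while Tnfaip3 (0.91, adjusted p = 0.0556), Nfkb2 and Nfkbia were not. The other 8 genes, among them Nfkb1, Rela, Traf3 and Birc3, had log2 values from -0.21 to 0.43 and did not pass the test. The receptor genes were too low to test: Tnfrsf11a, which encodes RANK, had 1 UMI in all, and Cd40 lay at 4.04 to 11.1 CPM over all cells of the 6 libraries, without TMM scaling.

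Of 16 tested genes for reported partners of the AIRE protein, none rose and 1 fell, the cell cycle gene Top2a (-0.78, SE 0.22, edgeR adjusted p = 0.0199), against 2.18% and 2.51% of all genes. The median of the 16 was -0.04. Of the 4 tested genes of the SAND domain list, none was called, with values of -0.22 for Sp100, -0.12 for Sp140, 0.46 for Sp110 and 0.47 for Gmeb2. Of the genes beside Aire on chromosome 10, Pfkl (0.37) and Cstb (0.24) were tested and neither was called.

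Genes of antigen presentation on MHC class II, the route by which peptides reach CD4 T cells, had the largest share of called genes among the lists examined. Of 6 tested genes, 4 fell and none rose, against 2.51% of all genes that fell, with a median of -0.78. H2-Ab1 was at 482 against 807 and 330 against 590 CPM in bone marrow of females and males and at 609 against 1097 and 420 against 856 CPM in spleen. H2-Aa was at 303 against 456 and 236 against 296 CPM in bone marrow and at 265 against 745 and 67.4 against 290 CPM in spleen. Both class II chains were lower in positive cells of all 4 libraries, H2-Ab1 by -0.86 (SE 0.10, edgeR adjusted p = 9.77e-12) and H2-Aa by -1.01 (SE 0.13, adjusted p = 1.17e-09).

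H2-Eb1 had -0.71 (SE 0.11) and H2-DMb1, a chain of the peptide exchange factor, -0.94 (SE 0.30). H2-DMb1 lost its call in 10 of 12 alternatives. H2-Ab1 lost it in 3 of 17 and was at -0.12 when cells were thinned to 1000 UMIs. H2-Aa lost it in 3 of 16 and H2-Eb1 in 4 of 17, and each changed sign in 1 more. Cd74, the invariant chain that accompanies class II molecules, was at 10352 to 17220 CPM in positive and 10498 to 15013 CPM in negative cells, and its difference of 0.08 did not pass the test. H2-Aa, H2-Ab1 and H2-Eb1 were also called among cells with no cell cycle UMI, at -0.97, -0.61 and -0.54. With positive cells restricted to those with at least 2 Aire UMIs, H2-Aa, H2-Eb1 and H2-Ab1 were at 0.08, 0.29 and -0.28 and were not called. That fit had no male spleen, where 6 cells qualified. It rested on 11, 18 and 12 positive cells of female bone marrow, female spleen and male bone marrow, so it differs from the main fit in its libraries too.

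Genes of ASC identity were tested in full. Of 10 genes, 1 rose and 2 fell, against 2.18% and 2.51% of all genes, with a median of -0.09 against -0.01 for all genes. Jchain, which encodes the chain that joins IgM and IgA multimers, rose by 0.28 (SE 0.04, edgeR adjusted p = 6.02e-08). Mzb1 (-0.37, SE 0.06) and Derl3 (-0.42, SE 0.09), which act in the endoplasmic reticulum, fell. Mzb1 lost its call in 6 of 17 alternatives and was at -0.02 with at least 2 Aire UMIs, and Derl3 lost it in 3 of 17 and was at -0.05 when cells were thinned to 1000 UMIs. Prdm1, Xbp1, Irf4, Sdc1, Tnfrsf17, Slamf7 and Cd28 had values from -0.17 to 0.24 and did not pass the test. Jchain lost its call in 4 of 17 alternatives and changed sign in 2, at -0.10 when cells were thinned to 1000 UMIs and at -0.00276 with at least 2 Aire UMIs. The fit with at least 2 Aire UMIs had no male spleen.

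Of the cell cycle list, 4 of 12 genes could be tested and 2 fell, Rrm2 (-1.23, SE 0.28), a subunit of ribonucleotide reductase, and Top2a, against 2.51% of all genes that fell. The median of the 4 was -0.60, and Mki67 (-0.42) and Mcm6 (-0.25) did not pass the test. Summed without TMM scaling, per 1000000 UMIs outside immunoglobulin genes, the list was at 191 against 344 and 140 against 218 CPM in bone marrow of females and males and at 389 against 1019 CPM in female spleen, but at 648 against 588 CPM in male spleen. In male spleen, on the TMM scale, Rrm2 was at 41.4 against 37.4 CPM and Top2a at 98.4 against 81.5 CPM, so both were lower in positive cells of 3 of 4 libraries. Rrm2 lost its call in 3 of 10 alternatives and Top2a in 8 of 13, among them leaving out female bone marrow (-0.65), female spleen (-0.66) or male bone marrow (-0.67). Of 5 tested interferon response genes, Isg15 fell (-0.78, SE 0.22), against 2.51% of all genes, and it lost that call in 11 of 15 alternatives.

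**Figure D5:**
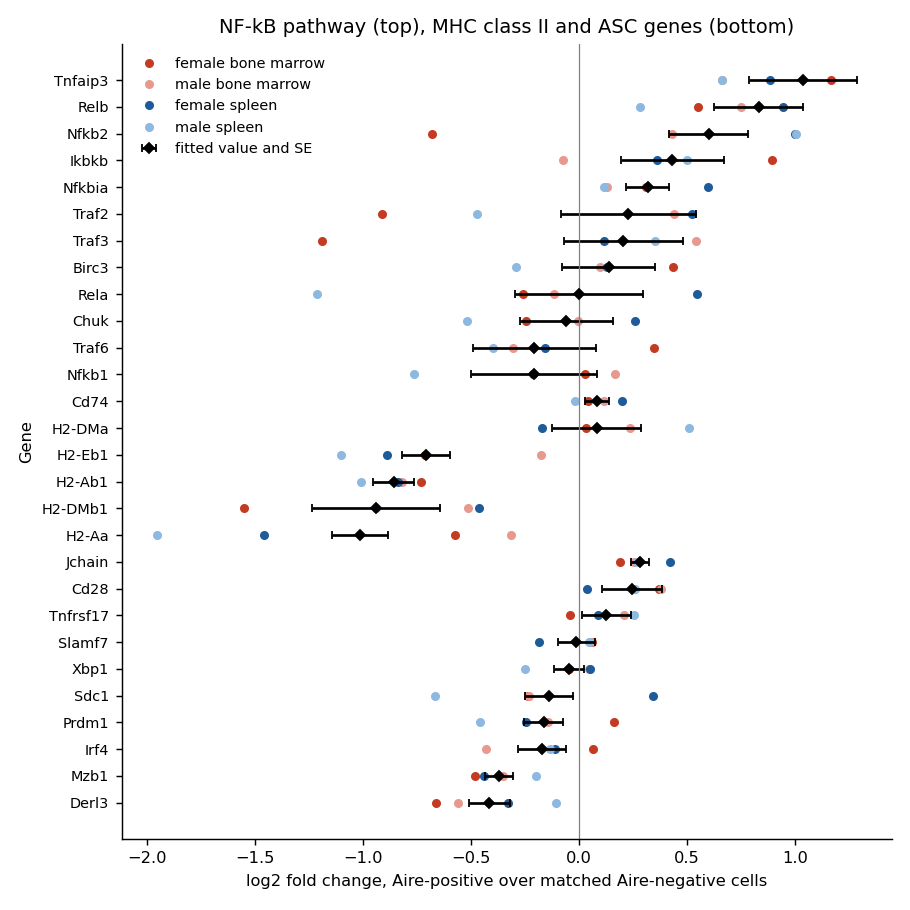
Log2 fold change of Aire-positive over matched Aire-negative cells (horizontal axis) for genes of the NF-kB, MHC class II and ASC lists (vertical axis). Dots are the 4 libraries, computed with 10 CPM added to both levels, and black diamonds are the fitted values with their SE. Tnfaip3 and Relb lie above 0 and H2-Aa, H2-Ab1 and H2-Eb1 below 0 in each library.

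Few genes of the marker lists for other cell types were abundant enough to test: 4 of 8 for B cells, Ms4a1, Cd37 and Ebf1 among them, and 1 of 8 each for macrophages, neutrophils and medullary thymic epithelium. None of these was called. No gene of the T cell, erythroid or dendritic lists could be tested, and there was no eosinophil list. On the TMM scale, Epcam was at 164 against 134 and 166 against 113 CPM in bone marrow of females and males and at 246 against 176 and 145 against 138 CPM in spleen (log2 fold change 0.40, SE 0.14, edgeR adjusted p = 0.0676), which missed the threshold. Estimated free RNA was 7.997 to 18.8% in positive and 6.96 to 19.1% in matched negative cells of the 4 libraries.

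The same pathway genes were compared between tissues over all cells that met the rule, with sums of the 6 libraries and terms for tissue and sex. With edgeR's quasi-likelihood test 86 of 11238 genes were called between thymus and bone marrow (0.765%), 71 between thymus and spleen (0.632%) and 49 between spleen and bone marrow (0.436%). Of the 48 tested NF-kB, partner, SAND domain and neighbouring genes, 0 were called in each comparison, and 9, 5 and 5 had an unadjusted p under 0.05. Over all genes in the fit, 981, 1033 and 523 had an unadjusted p under 0.05. DESeq2 called 1, 0 and 0. The gene nearest the threshold was Sp100, which encodes a nuclear body protein. Sp100 was at 333 and 227 CPM in thymus of females and males, 90.4 and 93.4 CPM in bone marrow and 107 and 120 CPM in spleen. Both thymus values lay above the other 4, which can follow from naming the gene nearest the threshold. Its difference between thymus and bone marrow was 1.29 on the log2 scale (SE 0.32, edgeR adjusted p = 0.0509), and DESeq2 called it. Without the shared barcodes it was called by edgeR (adjusted p = 0.0434). Interferon response genes were higher in thymus as well: 8 of 10 tested rose against bone marrow, with a median log2 value of 3.35. Against spleen 6 of 10 rose, with a median of 2.24. The sum of the list reached 3307 and 3759 CPM in thymus of females and males against 504 to 1431 CPM in the other libraries. Of the thymic sums, 1893 and 2183 CPM were from Ifi27l2a alone. Of 9 T cell genes 4 could be tested, and 3 of these were higher in thymus than in bone marrow. Only Trbc2 was called, at 52.9 and 10.1 CPM in thymus of females and males and at most 0.505 CPM elsewhere. Cd3g went the other way and was not called, at 0 and 1.68 CPM in thymus against 7.39 and 8.72 CPM in bone marrow. The part of the interferon and T cell genes in the Sp100 value was not tested. Sp140, from the same family, ran from 188 to 367 CPM and was not called.

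The genes whose levels were most like that of Aire were sought over 13 sums of cells, by library and by Ighm, Ighg or Igha, each with at least 50 cells. Of 7831 genes, the 8 with the highest Pearson r of log2(CPM + 10) were Sypl (0.87), Gas7 (0.86), Rab14 (0.85), Lpp (0.83), Vav3 (0.83), Rasgef1a (0.83), Il10rb (0.83) and Naa40 (0.81). The 13 sums share libraries and depth and are not independent, so no p is given. Aire had 0 to 5 UMIs in each of the 7 switched sums, and 2 and 3 UMIs in the Ighm sums of female and male thymus. The ranking therefore cannot be set apart from the difference between Ighm and switched cells described above. Gas7, a protein of actin assembly, was at 10.3 to 42.6 CPM in the 6 Ighm sums and at 5.72 to 22.3 CPM in the 7 switched ones. Vav3 was the 1 gene of these 8 that was also named as higher in Aire-positive cells.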

How the data were processed

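The gene expression libraries were made with droplet chemistry from the 5' end, and the files hold raw counts of UMIs per gene and barcode as deposited by the authors, not normalized. They were made with Cell Ranger 6.0.2 against GRCm38 (mm10), per the submitters' processing notes, and the receptor tables list assembled contigs per barcode. The reference annotation used here for positions was GENCODE vM21. Genes beginning with Igh, Igk or Igl (395) were left out of depths, library sizes and tests. No doublet caller was run.

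Free RNA was estimated per library from light chain V UMIs outside each cell's leading gene, scaled by the profile of barcodes outside the list of cells. Shares have exact binomial and levels exact Poisson intervals at 95%, and a count of 0 was bounded by 3 counts. Sums of cells were tested with edgeR 4.0.16 (quasi-likelihood test, TMM scaling, filterByExpr, R 4.3.3) with Benjamini-Hochberg adjustment at 0.05. The comparison of Aire-positive with 3 Aire-negative cells, matched by depth and heavy chain class, had terms for library and status over 4 libraries and 3 residual degrees of freedom. The comparison of tissues had terms for tissue and sex over 6 libraries and 2 residual degrees of freedom, and treats libraries as independent, so p-values measure only the spread between these pools. Tested on simulated data in which 200 genes differed by a log2 value of 2, the comparison by Aire recovered 93.5% with 5 false calls among 5834 genes. The tissue comparisons recovered 92.5% (thymus and bone marrow), 92% (thymus and spleen) and 100% (spleen and bone marrow).

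The gene, the rule, the gene lists and the alternatives were chosen with earlier results of these data known. Genes were named as the 15 higher and 10 lower with the largest log2 fold change among called genes with the same direction in all but at most 1 library, plus members of the lists. A few genes that this rule or the lists hold are not reported here. For likeness to Aire the 8 genes of highest Pearson r were named. The alternatives were DESeq2 1.42.0, other depth and light chain limits, other matching, thinning to 1000 UMIs, Ighm cells alone, cells with no cell cycle UMI, no filter, no library term and leaving out each library. Leaving out shared barcodes or the 4 V gene pairs, and the levels of eosinophil genes, were added after seeing the data.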

Additional observations from a re-analysis of the deposited data

Results flagged for a closer look

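Aire was also read in listed barcodes with at least 1000 UMIs outside immunoglobulin genes whose leading light chain V gene took under 50%. Apart from the counts of marker barcodes of other cell types, no comparison above uses them. The barcodes under 50% held 87 Aire UMIs in female and 50 in male bone marrow, 179 in female and 174 in male spleen, and 9 in male thymus, each above the limit that a count of 0 allows. In female thymus 124 such barcodes held 2 Aire UMIs, below that limit. Over all libraries 378 of 17034 such barcodes were positive, with 501 UMIs at 13.5 CPM, against 6.81 CPM in the cells that met the rule. Their median depth was 1775.5 UMIs and their estimated free RNA share 45.9%, and free RNA predicted 43.7 of the 501 UMIs. Near the limit of the rule the level did not step, at 11.5 CPM for a light chain share of 40 to 50% and 11.3 CPM for 50 to 60%. At the depth limit, barcodes from 800 to under 1000 UMIs had 2 Aire UMIs (10.3 CPM) and those from 1000 to under 1200 UMIs had 6 (19.9 CPM).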

How the results depend on the processing

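The number of genes called between Aire-positive and Aire-negative cells was 280. It was 71 with 1 matched cell, 620 with all negative cells, 34 with at least 2 Aire UMIs, 94 by DESeq2, 57 at a light chain share of at least 90%, 86 in cells with no cell cycle UMI, 8 with no library term, 5 after thinning (of 520 genes tested), 147 without the 4 V gene pairs and 168 without shared barcodes. Leaving out 1 library gave 117 to 232. Ighm cells alone gave 239 and a limit of 2000 UMIs gave 270. Male spleen, with 6 positive cells, was not in the fits with at least 2 Aire UMIs or a light chain share of at least 90%. Jchain was at -0.00276 with at least 2 Aire UMIs and at -0.10 after thinning, and H2-Aa and H2-Eb1 were at 0.0762 and 0.29 with at least 2 Aire UMIs. The cause was not tested. Named and listed genes kept direction and call in 397 of their alternatives, lost the call in 133 and changed sign in 4, those of Jchain, H2-Aa and H2-Eb1 given above.

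Of the pathway genes between thymus and bone marrow, 0 were called, and 1 (Sp100) at 2000 UMIs, by DESeq2, with no filter, after thinning and without shared barcodes. Leaving out 1 library gave 0 to 2 for thymus against bone marrow (Cstb and Sp100 without either spleen library), 0 to 3 for thymus against spleen (Cstb, Sp110 and Traf3 without male spleen) and 0 to 2 for spleen against bone marrow (Cd40 and Tnfrsf1a without either thymus library). The median depth difference was -120, and leaving out 1 library gave -221.3 to 3, the latter without female thymus.

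After thinning, the Aire level was 17.0 CPM in female bone marrow, 9.81 in female and 8.65 in male spleen, 13.1, 9.41 and 10.1 in bone marrow, spleen and thymus, 12.99 in Ighm and 0.617 in switched cells, and the share 1.21 and 0.901% in bone marrow of females and males, 0.897 and 0.811% in spleen, 1.03 and 0.868% in pooled bone marrow and spleen, 1.12% in Ighm and 0.0617% in switched cells. Per UMI of all genes the level was 5.11, 2.35, 3.90 and 2.80 in female bone marrow and spleen and male bone marrow and spleen, 4.33 and 2.47 in pooled bone marrow and spleen, and 3.71 and 0.542 in Ighm and switched cells. At a light chain share of at least 90% it was 6.21, 4.95, 3.33 and 0 CPM in bone marrow of females and males, male spleen and male thymus (0% of cells there), 5.44 in bone marrow and 5.88 in Ighm cells, with shares of 3.55% in female spleen, 3.10% in spleen and 3.74% in Ighm cells. At 2000 UMIs, female thymus had 0 CPM and 0%. Ighg cells and Igha cells alone were not run because too few were positive. The comparison by Aire paired cells within each library and the tissue comparison carried sex as a block. A further pairing was not fitted, since each sex and tissue has 1 library. At 311 Aire UMIs in all, differences within thymus or between switched classes were not detectable.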
